A study of Mus musculus with 8 samples.

Results

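The PI3K, AKT, FOXO and SGK1 axis was followed through 9 genes in cultured mouse regulatory T cells (Tregs), the FOXP3-bearing CD4 T cells that restrain immune responses. The genes were taken by name (Pik3cd, Pik3r1, Pik3ip1, Akt1, Akt2, Foxo1, Foxo3, Sgk1 and Mtor). All 9 had a row among the 19703 genes of the deposited table, and all 9 passed the filter that left 11083 genes to test. Tregs titled WT (wild type) were sorted from mice of the Foxp3-GFP reporter strain and stimulated with beads carrying antibodies to CD3 and CD28. The cytokines IL6, IL23 and IL1B, which push CD4 T cells towards IL-17 production, were in every culture. The FcCD70 group received in addition FcCD70, a soluble form of the ligand of the costimulatory receptor CD27, and the untreated group did not. Messenger RNA was sequenced on day 6, and the study asked how CD27 signalling acts on the Treg transcriptome in such cultures. The table used here has columns for 3 FcCD70 libraries (numbered 1 to 3) and 4 untreated libraries (numbered 1 to 4), of 8 samples in the labels. Neither the age of the mice nor whether the samples came from separate mice is stated, and the p-values therefore describe sample-to-sample spread only, some of which may be technical.

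Class I PI3K turns signals from the T cell receptor, costimulation and cytokine receptors into a membrane lipid that recruits AKT. An mTOR complex adds a second activating mark to AKT and to its relative SGK1. AKT and SGK1 phosphorylate the FOXO transcription factors, which then leave the nucleus. In mouse T cells nuclear FOXO1 maintains genes of homing and survival and is needed for Treg function, while SGK1 has been tied to Th17 differentiation through IL-23 receptor expression. Most of this control acts on proteins, which RNA sequencing does not measure, and in bulk samples fewer cells of a type and less RNA per cell cannot be told apart.

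The sample titles and the treatment field of the labels contradict each other in all 8 samples. The titles, whose wording the column names share, define the groups here, and every direction below depends on them. The libraries held 18159685 to 23527899 reads assigned to genes. Treg markers (Foxp3, Il2ra, Ctla4, Ikzf2 and Tnfrsf18) summed to 1980 to 2547 RPM (reads scaled to a common library total) in the FcCD70 libraries and 2200 to 2635 in the untreated libraries. The 5 T cell markers summed to 2917 to 3151 RPM in the FcCD70 libraries and 2785 to 3055 in the untreated ones. Markers of NK cells, fibroblasts, myeloid, plasma and CD8 T cells stayed below 10 RPM in sum in every library. Of the 6 B cell markers, Ighm alone was abundant, at 1585 to 1842 RPM. The FcCD70 library numbered 2 stood apart. Its median distance from the gene medians was 0.23 on the log2 scale, against 0.0695 to 0.146 in the other 6 libraries, and its Foxp3 level was 136 RPM, against 234 to 330 in the others. Of the other Treg markers, Il2ra was also lowest in this library (676 RPM) and Tnfrsf18 was highest (182 RPM). Its Ctla4 (745 RPM) and Ikzf2 (241 RPM) lay within the range of the others. Fold changes that leaving out this library turned, or moved by over 1.5 times, are also given without it, here or with the alternatives below.

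None of the 9 genes passed the test between FcCD70 and untreated libraries. Limma with the replicate number as a block called 0 of 9 at an adjusted p under 0.05 over all genes tested, where 0% of 11083 genes were called. Below an unadjusted p of 0.05 it held 0 of 9, against 188 genes (1.7%). The edgeR test called 0 genes (168 at an unadjusted p under 0.05), and DESeq2 called 1 gene (141), none of the 9. The 9 log2 fold changes ran from -0.17 to 0.19 with a median of -0.056, against a median of -0.00351 over all genes tested. In this fit the untreated library numbered 4 has no partner, so the fold changes rest on 3 same-numbered pairs. The groups were fully separated in 0 of the 9, where FcCD70 lay above in 1.34% and below in 1.18% of all genes tested. Sgk1 was higher with FcCD70 in all 3 pairs, as were 9.03% of the genes tested. Akt1 and Foxo3 were lower in all 3 pairs, as were 9.61% of the genes tested.

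**Figure D1:**
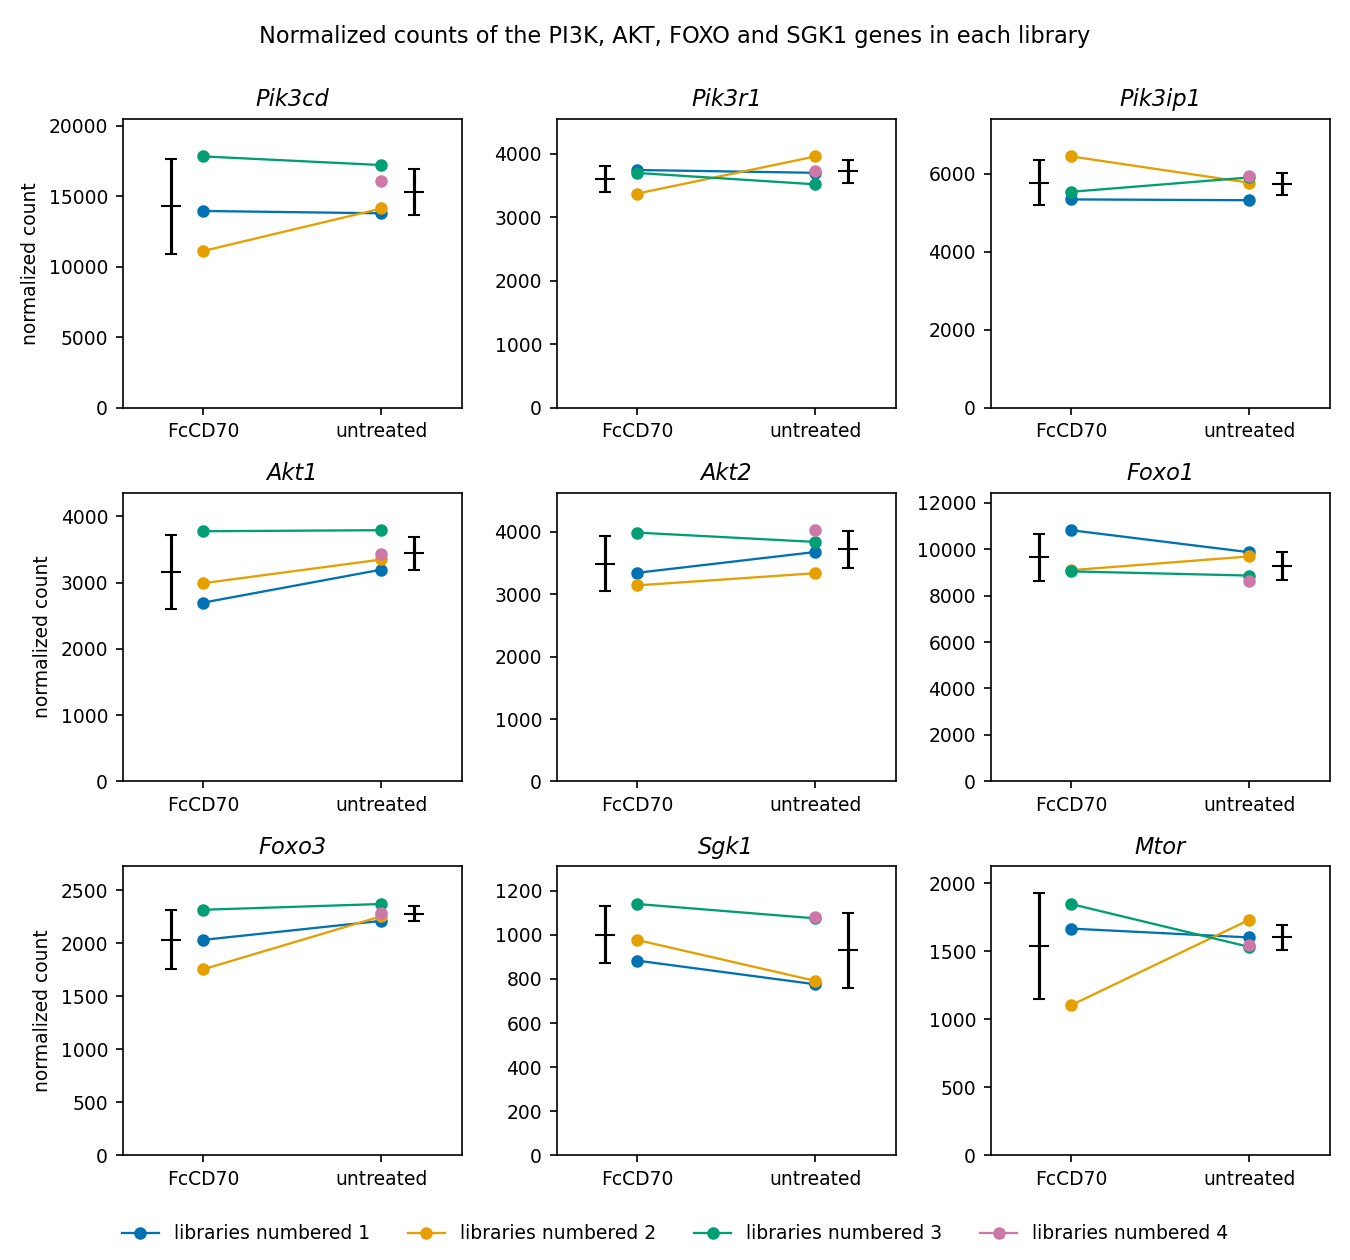
Normalized counts (y axes, from 0) of the 9 genes in the FcCD70 and untreated libraries, with lines joining libraries of the same number and bars giving mean ± SD (n = 3 and 4). Sgk1 is higher with FcCD70 on each of the 3 lines, and Mtor in the FcCD70 library numbered 2 (1103) lies below the other 6 libraries.

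Pik3cd encodes the catalytic PI3K subunit p110 delta, the form that prevails in leukocytes (ENSMUSG00000039936, chromosome 4, 149649168 to 149702571, GRCm38). Its normalized counts (reads divided by a size factor per library) were 13964, 11118 and 17837 in the FcCD70 libraries numbered 1 to 3, against 13796, 14140, 17222 and 16101 in the untreated libraries numbered 1 to 4. The FcCD70 values span the untreated ones, with the lowest and the highest of the 7. The log2 fold change was -0.093 (95% interval -0.42 to 0.24; adjusted p = 0.9998 in limma). The lone low value belongs to the FcCD70 library numbered 2. Without that library, and with a covariate that separates numbers 1 and 2 from 3 and 4 in place of the block, the log2 fold change was 0.049.

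Per kilobase of exon, Pik3cd made up most of the class I catalytic transcripts. Its share of the summed level per kilobase of the 4 catalytic genes was 80.6% ± 2.82 (SD, n = 3) with FcCD70 and 81.2% ± 1.27 (SD, n = 4) untreated. Pik3ca, encoding p110 alpha, held 15.4% ± 3.02 with FcCD70 and 14.7% ± 1.53 untreated. Pik3cb and Pik3cg, encoding p110 beta and gamma, reached at most 3.42% and 2.10% in any of the 7 libraries.

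Pik3r1 encodes p85 alpha, the regulatory subunit that stabilises the catalytic chain and docks it to receptors (ENSMUSG00000041417, chromosome 13, 101680563 to 101768217). It had 3747, 3374 and 3701 normalized counts with FcCD70 and 3703, 3962, 3521 and 3724 untreated. Its coefficient of variation over the 7 libraries, 5.03%, was the smallest of the 9 genes. The groups overlapped, and the log2 fold change was -0.047 (95% interval -0.33 to 0.23). Leaving out the FcCD70 library numbered 2, with the covariate, gave -5.1e-05. In the regulatory family it held 48.4% ± 4.03 of the summed level per kilobase with FcCD70 and 47.2% ± 2.21 untreated. Pik3r5, a regulatory partner of p110 gamma, held 24.1% ± 5.84 with FcCD70 and 28.0% ± 4.83 untreated.

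Pik3ip1 encodes a transmembrane protein that inhibits PI3K in T cells (ENSMUSG00000034614, chromosome 11, 3330401 to 3342971). It had 5338, 6441 and 5533 normalized counts with FcCD70, against 5317, 5765, 5901 and 5932 untreated. The highest value was in the FcCD70 library numbered 2, and the other FcCD70 libraries lay within the untreated range. Limma put the log2 difference at 0.024 (95% interval -0.25 to 0.30), and at -0.075 without that library and with the covariate. Cdca4 and Dad1 had the patterns most like it over the 7 libraries. Their root mean square differences from it in mean-centred log2 values were 0.0239 and 0.0245, where the median over 9577 genes was 0.196. Here, and for Foxo1 and Sgk1 below, the genes named were picked as the closest, so a value under the median follows from the choice.

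Akt1 and Akt2 encode kinases that PI3K activates. Akt1 (ENSMUSG00000001729, chromosome 12, 112653821 to 112674884) had 2697, 2990 and 3774 normalized counts with FcCD70 and 3196, 3348, 3790 and 3426 untreated. Its log2 differences were -0.24, -0.16 and -0.00607 in the pairs numbered 1, 2 and 3, so both libraries numbered 3 were nearly equal. The log2 fold change was -0.14 (95% interval -0.41 to 0.13). Between the libraries numbered 4, with the rebuilt FcCD70 library described below, the difference was 0.091.

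Akt2 (ENSMUSG00000004056, chromosome 7, 27591552 to 27640826) had 3345, 3144 and 3990 normalized counts with FcCD70, against 3680, 3339, 3841 and 4029 untreated. The FcCD70 value was lower in 2 pairs and higher in 1, and limma put the log2 difference at -0.056 (95% interval -0.33 to 0.21), or -0.023 without the FcCD70 library numbered 2 and with the covariate.

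**Figure D2:**
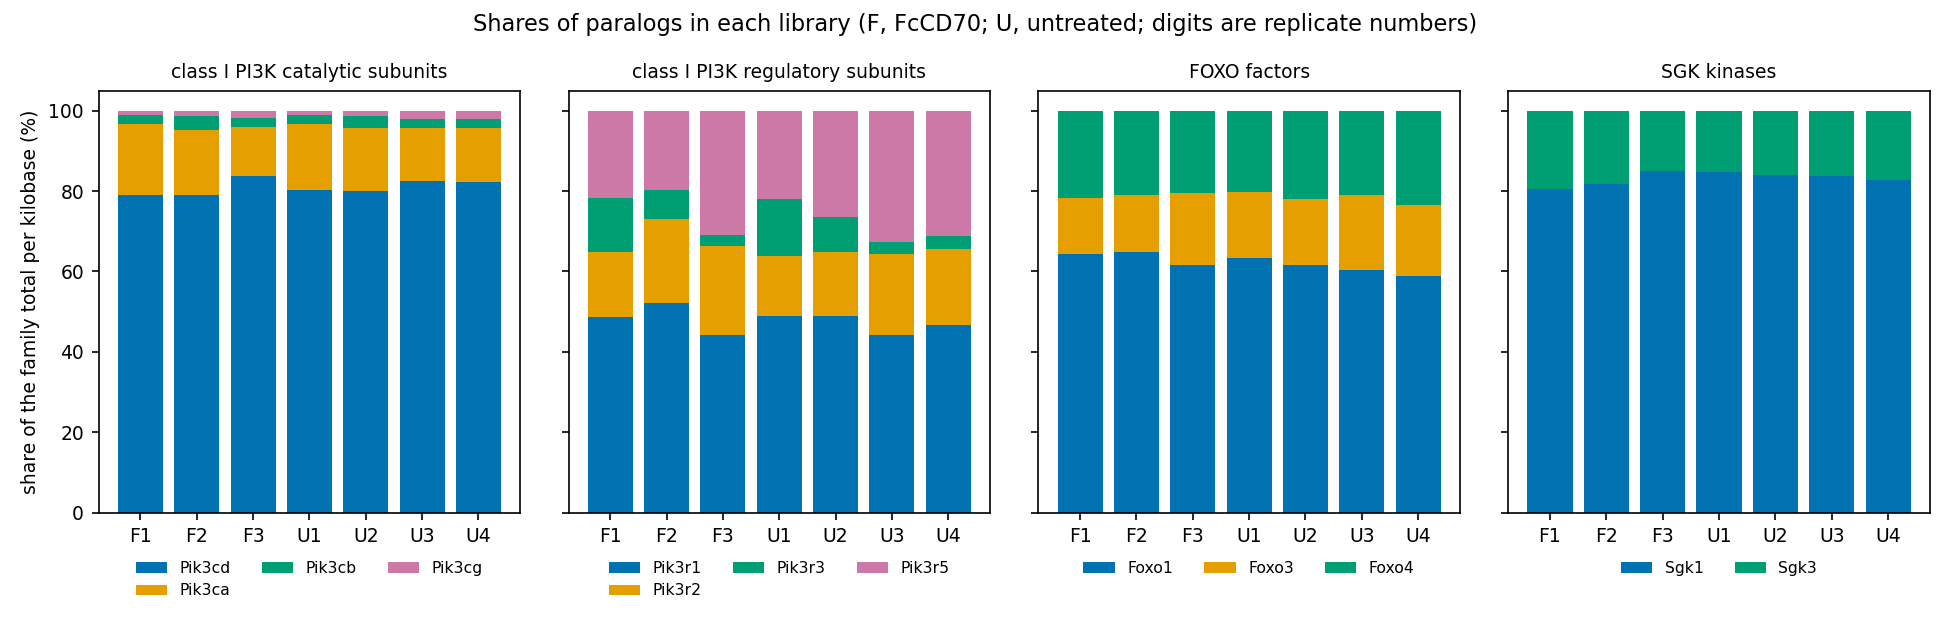
Share of each paralog (y axis, % of the family's summed normalized count per kilobase of exon) in the 3 FcCD70 libraries (F1 to F3) and the 4 untreated libraries (U1 to U4); genes under 0.5% are not drawn. Pik3cd holds 78.9% to 83.8% of the catalytic subunits, Foxo1 58.8% to 64.8% of the FOXO factors and Sgk1 80.6% to 84.9% of the SGK kinases, while Pik3r3 runs from 2.80% to 14.05% of the regulatory subunits.

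Mtor encodes the kinase at the core of both mTOR complexes (ENSMUSG00000028991, chromosome 4, 148448611 to 148557683). It had 1668, 1103 and 1848 normalized counts with FcCD70 and 1602, 1733, 1532 and 1545 untreated. The FcCD70 libraries numbered 1 and 3 were above their untreated partners by 0.058 and 0.27 (log2), and the one numbered 2 was below by 0.65. The log2 fold change of -0.11 (95% interval -0.50 to 0.29) turned to 0.13 without the FcCD70 library numbered 2 and with the covariate (adjusted p = 0.638 in limma). Angptl7 lies on the opposite strand within Mtor and was listed at 0 in all 7 libraries.

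Foxo1 encodes the FOXO factor most studied in Tregs (ENSMUSG00000044167, chromosome 3, 52268336 to 52353221). It had 10811, 9090 and 9039 normalized counts with FcCD70, against 9862, 9682, 8858 and 8644 untreated. FcCD70 values were higher in the pairs numbered 1 and 3 and lower in the pair numbered 2. The log2 fold change was 0.024 (95% interval -0.27 to 0.31, or 0.831-fold to 1.24-fold). An increase or decrease within those bounds was not excluded by this fit. The log2 fold change was 0.096 without the FcCD70 library numbered 2 and with the covariate. It was -0.031 with the block and without the libraries numbered 1. Zfp91, Paxbp1 and Usp4 had the patterns most like it, with root mean square differences of 0.0236, 0.0236 and 0.0267 against a median of 0.208.

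Foxo3 encodes a second FOXO factor (ENSMUSG00000048756, chromosome 10, 42181841 to 42276755). It had 2030, 1752 and 2314 normalized counts with FcCD70 and 2210, 2253, 2369 and 2280 untreated. The untreated libraries lay close together (2278 ± 67.1, SD, n = 4) and the FcCD70 libraries spread more widely (2032 ± 281, SD, n = 3), with 2 of the 3 below the untreated range. Its log2 fold change was -0.17 (95% interval -0.46 to 0.11; adjusted p = 0.9998 in limma). The differences were -0.12, -0.36 and -0.034 in the pairs numbered 1, 2 and 3. Leaving out the FcCD70 library numbered 2, with the covariate, gave -0.071. The authors' deposited DESeq2 table, over 8 libraries and turned to FcCD70 minus untreated, gives Foxo3 -0.14 (SE 0.12) with an adjusted p of 0.99999.

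Within the FOXO family, Foxo1 held 63.6% ± 1.76 of the summed level per kilobase with FcCD70 and 61.1% ± 1.96 untreated. Foxo3 held 15.4% ± 2.30 with FcCD70 and 17.2% ± 1.08 untreated, and Foxo4 21.0% ± 0.677 with FcCD70 and 21.7% ± 1.37 untreated. Foxo6 was listed at 0 in all 7 libraries.

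Sgk1 encodes the serum- and glucocorticoid-regulated kinase (ENSMUSG00000019970, chromosome 10, 21882184 to 21999903). It had 883, 977 and 1140 normalized counts with FcCD70, against 776, 791, 1075 and 1080 untreated. Each FcCD70 library was above its untreated partner, by 0.19, 0.30 and 0.085 (log2) in the pairs numbered 1, 2 and 3, yet the groups overlapped, with the libraries numbered 3 or 4 above those numbered 1 or 2 in both groups. The log2 fold change was 0.19 (95% interval -0.11 to 0.49; adjusted p = 0.9998 in limma), the largest in size among the 9. It was 0.13 without the FcCD70 library numbered 2 and with the covariate, and 0.11 with neither block nor covariate. The authors' deposited DESeq2 table, turned to FcCD70 minus untreated, gives Sgk1 0.14 (SE 0.13) with an unadjusted p of 0.260.

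Sgk1 held 82.4% ± 2.24 of the summed level per kilobase of the SGK genes with FcCD70 and 83.8% ± 0.83 untreated. Sgk3 made up the rest, and Sgk2 was listed at 0 throughout. These shares depend on the exon lengths used, 4903 bases for Sgk1 and 14311 for Sgk3. In normalized counts, not divided by length, the means over the libraries were 960 for Sgk1 and 567 for Sgk3. Tagln2, which encodes an actin-binding protein, had the pattern most like that of Sgk1 (root mean square difference 0.0285, against a median of 0.268), followed by Ddx18 (0.0535) and Trim8 (0.0542). All of them, like Sgk1, were higher in every library numbered 3 or 4 than in every library numbered 1 or 2. So were 11.1% of all genes tested.

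**Figure D3:**
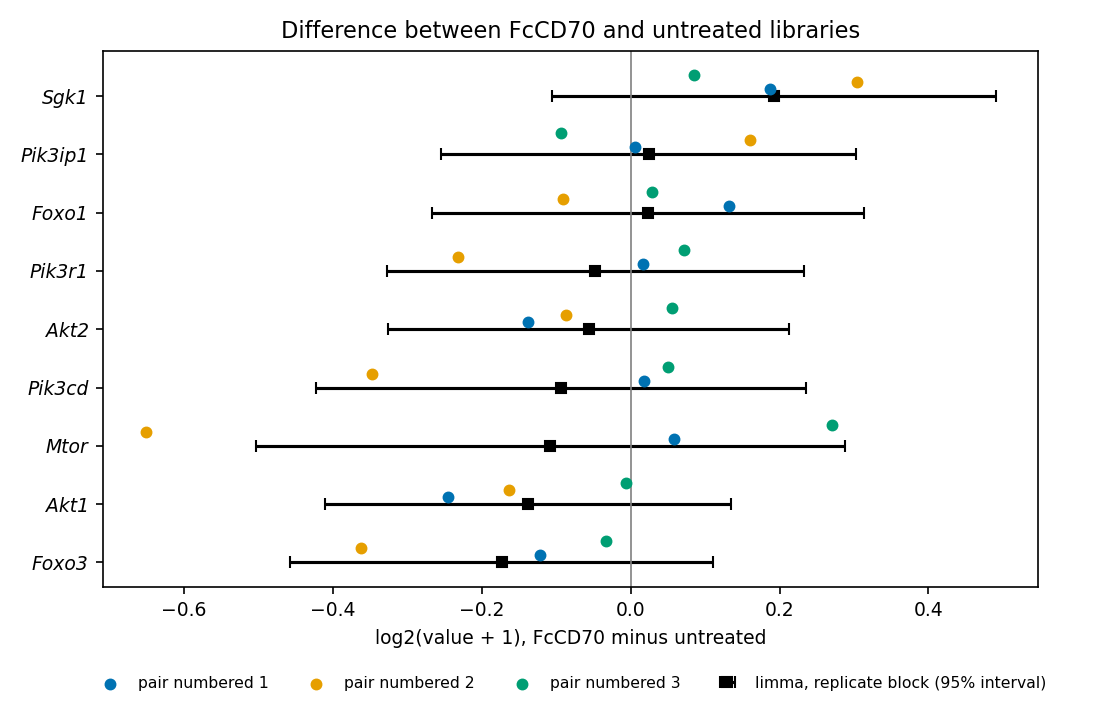
Differences between FcCD70 and untreated libraries on the log2(value + 1) scale (x axis) for the 9 genes, as limma estimates with 95% intervals (squares) and as the 3 same-numbered pairs (dots). Every interval includes 0, and for Mtor the pair numbered 2 (-0.65) lies outside it.

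The FcCD70 library numbered 2 gave the lowest value of the 7 libraries in 5 of the 9 genes (Pik3cd, Pik3r1, Akt2, Foxo3 and Mtor) and the highest in 1 (Pik3ip1). Over all genes tested it was lowest in 28.4% and highest in 27.3%. Over the pairs numbered 1 and 3 alone, 5 of 9 genes were higher with FcCD70 (25.8% of all genes tested) and 2 of 9 lower (25.6%). A further FcCD70 library, numbered 4, has no column in the table used here, but its values follow from the authors' mean over 8 libraries. This rebuilt FcCD70 library had 1083 normalized counts of Sgk1, against 1080 in the untreated library numbered 4. For Foxo3 it had 2224, against 2280 in that untreated library. Over 4 pairs 1 gene was higher throughout (Sgk1, as were 5.73% of all genes) and 1 lower throughout (Foxo3, as were 5.76%).

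Several of the 9 genes followed the replicate numbers, though none passed the test of those numbers with all 7 libraries. The moderated F test of the number terms in the same limma fit called 15 of 11083 genes (0.135%) and 0 of the 9, whose adjusted p ran from 0.669 (Sgk1) to 0.9992 (Pik3r1), and 0 of the 9 had an unadjusted p under 0.05 (8.02% of all genes). Without both libraries numbered 2 that test called 1809 of 11090 genes, among them Pik3cd (adjusted p = 0.000931 in limma), Akt1 (0.00147) and Sgk1 (0.00731), on 1 residual degree of freedom. In 5 of the 9 genes every library numbered 3 or 4 was above every library numbered 1 or 2, against 11.1% of all genes tested. For Pik3cd the libraries numbered 3 or 4 averaged 17053 normalized counts and those numbered 1 or 2 averaged 13254, and for Sgk1 these means were 1098 and 857. Akt1 averaged 3663 in the libraries numbered 3 or 4 and 3058 in those numbered 1 or 2, Akt2 averaged 3953 in those numbered 3 or 4 and 3377 in those numbered 1 or 2, and Foxo3 2321 and 2061 likewise. Foxo1 went the other way, with 8847 in the libraries numbered 3 or 4 and 9861 in those numbered 1 or 2, as did another 11.1% of all genes tested. Adding the rebuilt library among those numbered 4 kept the separation in all of these but Foxo3, that is in 4 genes above (10% of all genes) and 1 below (9.96%). This division of the numbers was known from earlier results of these data, what the numbers stand for is not stated in the labels, and its part in the values above was not tested beyond the fits with the block or covariate.

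Per kilobase of exon the 9 genes kept nearly the same order in every library. Pik3cd was highest at a mean of 2378 normalized counts per kilobase, followed by Pik3ip1 at 1345, Foxo1 at 1088, Akt1 at 809 and Akt2 at 508. Pik3r1 followed at 365, Foxo3 at 287, Sgk1 at 196 and Mtor at 156. Each gene was above the next in 7 of 7 libraries, except Sgk1, which was above Mtor in 5 of 7. The ranges over libraries overlapped between Pik3ip1 and Foxo1, between Foxo3 and Sgk1 and between Sgk1 and Mtor.

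Among the other PI3K subunits, listed together with Pik3ap1, an adaptor that binds p85, 0 genes passed in the comparison of FcCD70 with untreated. Of the 7 tested in this list, 6 had a log2 fold change below 0, against 50.9% of all genes tested. The median was -0.17, and the lowest value was that of Pik3ap1, which is not itself a subunit. Pik3ap1 had 112, 61.8 and 79.4 normalized counts with FcCD70 and 128, 107, 119 and 95.7 untreated, a log2 difference of -0.52 (95% interval -1.11 to 0.073). It was -0.24 without the FcCD70 library numbered 2 and with the covariate. Pik3r2, encoding p85 beta, had the highest value of the list, a log2 fold change of 0.14. Within the pair numbered 2 the median of this list was -0.47, against -0.047 and -0.016 in the pairs numbered 1 and 3.

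Pik3r3, encoding the regulatory subunit p55 gamma, was 1 of the 15 genes past the test of the replicate numbers (adjusted p = 0.0458 in limma). It had 540, 239 and 123 normalized counts with FcCD70 and 559, 372, 127 and 139 untreated, so both libraries numbered 1 were high and those numbered 3 or 4 low. With edgeR its adjusted p was 0.0691, past the threshold no longer. Between FcCD70 and untreated libraries its log2 fold change was -0.24 (95% interval -0.70 to 0.21), and 0.030 with no block. An annotated protein-coding gene with no row in the table used here overlaps Pik3r3 on the same strand, so its reads may be shared.

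The brakes on PI3K and AKT had 10 tested genes, of which 0 passed, 7 lay below 0 (50.9% of all genes tested) and the median was -0.12. Its medians were 0.12, -0.49 and 0.043 in the pairs numbered 1, 2 and 3, and the FcCD70 library numbered 2 was lowest of 7 in 6 of the 10 genes (28.4% of all genes). Phlpp1 and Phlpp2 encode phosphatases that act on AKT, and they stood at the ends of the list. In limma the log2 difference was 0.18 for Phlpp1 (95% interval -0.14 to 0.49) and -0.41 for Phlpp2 (95% interval -0.94 to 0.12). Without the FcCD70 library numbered 2 and with the covariate, these were 0.28 for Phlpp1 and -0.080 for Phlpp2. With the block and without both libraries numbered 3, Phlpp1 stood at 0.054 and Phlpp2 at -0.64. In the FcCD70 library numbered 2 Phlpp2 had 237 normalized counts, while FcCD70 libraries 1 and 3 had 397 and 468 and the untreated libraries 418 to 535.

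Of 7 related kinases and their activator, 0 passed and 5 lay below 0 (50.9% of all genes tested), with a median of -0.084. The medians were -0.025, -0.26 and 0.032 in the pairs numbered 1, 2 and 3. The FcCD70 library numbered 2 was lowest of 7 in 5 of the 7 genes (28.4% of all genes tested). Sgk3 had the highest fold change of these, with 621, 641 and 593 normalized counts with FcCD70 against 407, 437, 610 and 656 untreated. Its untreated libraries numbered 1 and 2 were low and those numbered 3 and 4 lay among the FcCD70 values, and the log2 fold change was 0.37 (95% interval -0.016 to 0.76). Rps6kb2, an S6 kinase gene that overlaps the abundant Ptprcap on the opposite strand, had the lowest log2 fold change of these (-0.24). Without the FcCD70 library numbered 2 and with the covariate, Sgk3 stood at 0.23 and Rps6kb2 at -0.073. Reads of such overlaps may be shared, since the strand setting of the counting is not given in the sources used here.

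The mTOR complexes and outputs had 11 tested genes, 0 past the threshold, and a median of -0.032. For Mlst8, a subunit of both complexes, the log2 fold change was -0.29 (95% interval -0.63 to 0.059). Its log2 differences were -0.000557, -0.58 and -0.29 in the pairs numbered 1, 2 and 3, so the first pair was level. Without the FcCD70 library numbered 2 and with the covariate the value was -0.15. Rheb, the GTPase that activates mTOR complex 1, had 0.13. Deptor, an inhibitor that binds mTOR, was the one list gene with every FcCD70 library above every untreated one, as were 1.34% of all genes tested, and was named after its values were seen. Its counts were low, at 24.9, 33.7 and 32.6 with FcCD70 and 5.50, 14.1, 21.4 and 24.4 untreated, and the rebuilt library had 21.6, inside the untreated range. The log2 fold change of Deptor was 1.26 (95% interval 0.088 to 2.43; adjusted p = 0.9998 in limma). Between the libraries numbered 4, with the rebuilt one, its log2 difference was -0.17. Prr5l, a partner of mTOR complex 2 also named after its values were seen, had every FcCD70 library below every untreated one, as had 1.18% of all genes tested. It had 13.5, 11.2 and 19.4 with FcCD70 and 25.3, 27.2, 27.2 and 34.8 untreated, but 36.3 in the rebuilt library. Its log2 fold change was -0.85 (95% interval -1.93 to 0.24). Among 7 tested AKT and SGK1 substrates and FOXO partners, 0 passed and the median was -0.0095, with Bad at 0.031 and Nedd4l at -0.11 (-0.069 without the FcCD70 library numbered 2 and with the covariate).

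Of 17 tested genes known as FOXO1 targets in T cells, 0 passed the threshold, 11 had a log2 fold change above 0 and 6 below, and the median was 0.040 (49.1% of all genes tested lay above 0). In all 3 pairs 6 of 17 were higher with FcCD70 (9.03% of all genes) and 1 of 17 was lower (9.61%). With the rebuilt pair these counts were 5 (5.73%) and 1 (5.76%), and over the pairs numbered 1 and 3 alone 9 (25.8%) and 2 (25.6%). Il7r and others of these genes were seen in earlier results of these data, so their counts are no independent evidence. The FcCD70 library numbered 2 was highest of 7 in 7 of the 17 (27.3% of all genes tested) and lowest in 4 (28.4%). Its part in these counts was not tested beyond leaving it out.

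Il7r, the IL-7 receptor chain, had the highest fold change of the list, with 6783, 8846 and 10760 normalized counts with FcCD70 against 5211, 6947, 7411 and 7576 untreated. The value was higher with FcCD70 in each pair, although the groups overlapped. Its log2 fold change was 0.42 (95% interval 0.14 to 0.70; adjusted p = 0.9998 in limma), and without the libraries numbered 2 it was 0.46 (adjusted p = 1.65e-05), on 2 pairs and 1 residual degree of freedom. Without the FcCD70 library numbered 2 alone and with the covariate, Il7r stood at 0.35 (adjusted p = 0.181 in limma). With neither block nor covariate it was 0.21 without the FcCD70 library numbered 3 and 0.24 without the untreated library numbered 1. The authors' deposited DESeq2 table, over 8 libraries and turned likewise, gives Il7r 0.41 (SE 0.10) with an adjusted p of 0.287. Klf2, a factor that drives homing receptor genes, had 1477, 3006 and 2367 with FcCD70 and 1459, 1656, 2334 and 2258 untreated, and was named after its values were seen. Its log2 fold change of 0.30 became -0.015 without the FcCD70 library numbered 2 and with the covariate.

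Irs2, which encodes a docking protein upstream of PI3K, had the lowest log2 fold change of the list, at -0.37 (95% interval -1.17 to 0.42). It had 255, 77.5 and 205 normalized counts with FcCD70 and 210, 245, 172 and 176 untreated, and without the FcCD70 library numbered 2 and with the covariate the value was 0.20. Bcl2l11, encoding the pro-apoptotic protein BIM, was the one gene of this list with every FcCD70 library below every untreated one, as were 1.18% of all genes tested. It had 1856, 1616 and 1773 with FcCD70 and 2264, 2292, 1963 and 2106 untreated. Its log2 fold change was -0.31 (95% interval -0.60 to -0.025; adjusted p = 0.9998 in limma) and -0.25 without the FcCD70 library numbered 2 and with the covariate (adjusted p = 0.194). The rebuilt FcCD70 library had 1768, also below the untreated libraries, and Bcl2l11 was named after its values were seen.

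**Figure D4:**
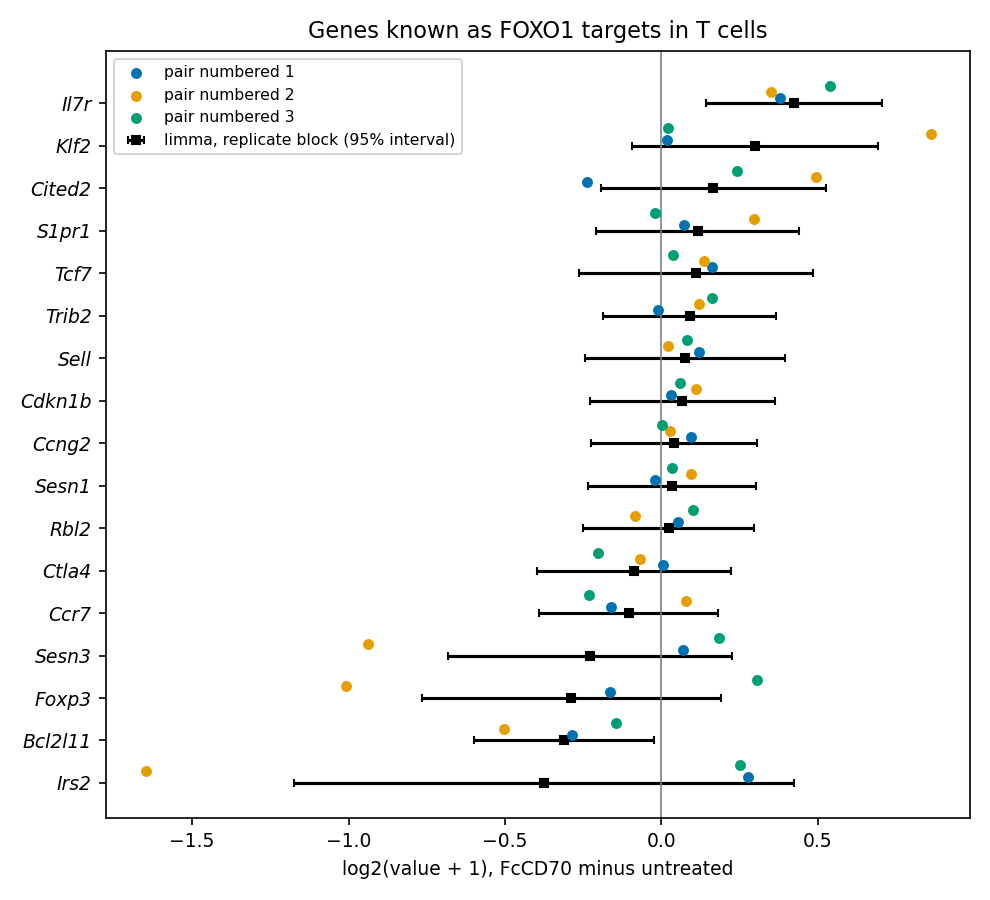
Differences between FcCD70 and untreated libraries on the log2(value + 1) scale (x axis) for 17 genes known as FOXO1 targets, as limma estimates with 95% intervals (squares) and as the 3 same-numbered pairs (dots). The intervals of Il7r (0.14 to 0.70) and Bcl2l11 (-0.60 to -0.025) exclude 0 before adjustment. The pair numbered 2 lies far below the other pairs for Irs2, Foxp3 and Sesn3, and far above them for Klf2.

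FOXO factors bind DNA with the core letters GTAAACA, read TGTTTAC on the other strand. Promoter windows of 300 bases, from 250 before to 50 after a start, were taken from RefSeq (GRCm38.p6) for all 9 axis genes and for 15 of the FOXO1 target genes. Some genes have several windows, 1 for each annotated start, and a gene is counted where any of them holds the letters. The letters stood in a window of 1 of the 9 (Akt1, in 1 of its 2 windows) and of 4 of the 15 (Bcl2l11, Btg1, Sesn1 and Tcf7), against 4.05% of 27025 genes. Btg1 has no row in the table used here. A match describes these letters and does not show a bound site, and its absence from a window says nothing of binding elsewhere. The windows of Bcl2l11, the target with separated groups, of Tcf7, a T cell factor with 38120 to 43492 normalized counts with FcCD70 and 34112 to 43008 untreated, and of Akt1 follow. Capitals mark the letters on either strand, which begin 227 bases before the start in Bcl2l11, 1 base after it in Tcf7 and 161 before it at the Akt1 start shown.
Bcl2l11 (chr2:128125788-128126087, GRCm38.p6, plus strand): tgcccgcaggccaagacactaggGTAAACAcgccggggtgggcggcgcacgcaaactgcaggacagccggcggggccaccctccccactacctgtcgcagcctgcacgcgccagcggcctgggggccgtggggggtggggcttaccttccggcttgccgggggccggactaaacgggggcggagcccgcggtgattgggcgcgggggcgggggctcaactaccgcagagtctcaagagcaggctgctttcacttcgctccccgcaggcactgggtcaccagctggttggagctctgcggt
Tcf7 (chr11:52282546-52282845, GRCm38.p6, minus strand): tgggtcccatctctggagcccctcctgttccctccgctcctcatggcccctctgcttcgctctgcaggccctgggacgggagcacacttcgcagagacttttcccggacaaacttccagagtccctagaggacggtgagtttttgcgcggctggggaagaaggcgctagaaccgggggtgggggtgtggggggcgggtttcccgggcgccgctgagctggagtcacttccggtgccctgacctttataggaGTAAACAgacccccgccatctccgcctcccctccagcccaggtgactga
Akt1 (chr12:112674835-112675134, GRCm38.p6, minus strand): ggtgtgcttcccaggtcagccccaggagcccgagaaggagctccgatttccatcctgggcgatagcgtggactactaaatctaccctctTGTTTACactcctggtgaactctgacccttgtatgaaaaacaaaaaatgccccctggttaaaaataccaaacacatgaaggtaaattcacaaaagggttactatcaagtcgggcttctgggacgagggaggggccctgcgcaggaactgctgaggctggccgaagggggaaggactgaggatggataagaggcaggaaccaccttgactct

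Genes that FOXO1 activity holds down had 7 tested members, of which 0 passed between FcCD70 and untreated and 5 lay below 0 (50.9% of all genes tested). The median was -0.032, against -0.00351 over all genes tested. Il23r, the IL-23 receptor gene tied to SGK1 in Th17 cells, had 93.2, 67.4 and 44.97 normalized counts with FcCD70, against 237, 128, 38.8 and 47.0 untreated. It was lower in the pairs numbered 1 and 2 and higher in the pair numbered 3, a log2 difference of -0.68 in limma (95% interval -1.46 to 0.099). Without the FcCD70 library numbered 2 and with the covariate it was -0.41. Id2, a regulator of effector differentiation, had the highest log2 fold change, at 0.17.

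Gzmb, encoding granzyme B, passed the test of the replicate numbers (adjusted p = 0.0287 in limma; 0.0626 with edgeR). It had 640, 1209 and 1959 normalized counts with FcCD70 and 483, 1268, 1746 and 2339 untreated. Both libraries numbered 1 were lowest. Its log2 fold change between the groups was 0.17 (95% interval -0.15 to 0.48) with the block and -0.13 without it.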

How the data were processed

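Per the labels' protocols, Treg RNA went through Illumina's stranded TruSeq mRNA preparation. The submitters' processing notes list TopHat2, SAMtools, HTSeq and DESeq2 with build GRCm38.p4 and say nothing of their roles. The annotation release is not given in the sources used here, nor is the strand setting.

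In the deposited table the library columns are a signal, each gene's read count divided by 1 size factor per library, and the authors' mean column averages this signal across 8 libraries. All values were whole multiples of 1 step per column (100% within 0.01), which gave back the reads. The table also holds the authors' log2 fold changes with standard errors, p-values and, as a score, a statistic, all deposited and named so per the file headers. The headers give neither the direction nor the kind of statistic. The fold changes were read as untreated minus FcCD70 and turned here, and the statistic was read as the Wald statistic.

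Since the values were normalized, limma (3.58.1, with a trend) was fitted to log2(value + 1) of genes with a mean of at least 10, with the replicate number as a block because the table is named a paired analysis, and Benjamini-Hochberg adjustment at 0.05. Fold changes on that scale understate those of low genes. A moderated F test of the number terms came from the same fit. The edgeR (4.0.16) and DESeq2 (1.42.0) tests on recovered reads were alternatives. The self-test ran on simulated reads. Exon lengths, positions and overlaps are from GENCODE M21 (GRCm38), which held 19618 of the 19703 IDs.

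Named genes are the 9 members, per list those past the threshold or else the largest increase and decrease with a mean of at least 50, and the 3 genes most like Pik3ip1, Foxo1 and Sgk1. Other names are marked where they appear. A few genes that these rules or lists take in are not reported here. The members and lists were chosen with earlier results of these data known. Depth sets a floor of 3 reads per library, 2.61 to 3.37 normalized counts, for counting error only.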

Additional observations from a re-analysis of the deposited data

How the results depend on the processing

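In the comparison of FcCD70 with untreated libraries no axis gene passed the threshold in any of 23 alternatives. Of 575 values of 25 named genes, 535 kept direction and side of the threshold, 39 turned sign and 1 (Il7r, without the libraries numbered 2) passed. Some alternatives gave the main fold changes by construction, such as a changed filter or leaving out the unpaired untreated library numbered 4. These count among the 535, which is therefore no measure of robustness. The same-numbered libraries correlated in their deviations from the group means over 11083 genes at 0.303 (number 1), 0.0144 (number 2) and 0.435 (number 3). FcCD70 libraries 1 and 3 correlated best with their own numbers. FcCD70 library 1 came close to that with untreated library 2 (0.255), as did FcCD70 library 3 with untreated library 4 (0.347). FcCD70 library 2 did not correlate best with its own number, so the numbers are not shown to pair all the samples. With no replicate block limma called 0 genes, as with it (120 against 188 at an unadjusted p under 0.05), while Pik3r3 turned to 0.030 and Gzmb to -0.13. A covariate for numbers 1 and 2 against 3 and 4, with FcCD70 library 2 left out, gave 6 called genes, none of the 9. That fit put 1009 of 11103 genes at an unadjusted p under 0.05 in limma. It turned Pik3cd to 0.049, Pik3ip1 to -0.075, Mtor to 0.13, Pik3r3 to 0.067, Rheb to -0.031, Bad to -0.00607, Irs2 to 0.20, Id2 to -0.048 and Gzmb to -0.17, and leaving that library out with neither term gave the same values. Leaving out FcCD70 library 2 with neither term called 0 genes, with 172 at an unadjusted p under 0.05 in limma. DESeq2 called 1 gene.

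When 1 number was left out with the block kept, genes called ran from 0 to 19, the 19 without number 2 and 6 without number 3. At an unadjusted p under 0.05 in limma there were 711 genes without number 2 and 485 without number 3. There were 208 without number 1 and 187 without number 4. Log2 fold changes then ran from -0.16 to 0.034 for Pik3cd, -0.11 to 0.045 for Pik3r1, -0.044 to 0.083 for Pik3ip1, -0.031 to 0.081 for Foxo1, -0.30 to 0.16 for Mtor, -0.044 to 0.28 for Rheb, -0.11 to 0.17 for Bad, -0.70 to 0.26 for Irs2 and -0.026 to 0.32 for Id2. When 1 library was left out with no block, values turned without untreated library 1 for Pik3ip1 (-0.028), Pik3r3 (0.42), Il23r (0.087) and Gzmb (-0.59), and without untreated library 2 for Pik3r3 (0.23) and Gzmb (-0.13). They turned without FcCD70 library 1 for Foxo1 (-0.029) and without FcCD70 library 3 for Pik3r2 (-0.074), Pik3r3 (0.54) and Gzmb (-0.52). Over all these omissions Akt1 (-0.27 to -0.031), Akt2 (-0.20 to -0.016), Foxo3 (-0.27 to -0.071) and Sgk1 (0.016 to 0.25) kept their sign.

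The 15 genes called between replicate numbers became 0 with no filter, 0 with edgeR under either scaling, 29 with a common library total and 117 with 8 libraries. Leaving out 1 number gave 29 to 1809, the 1809 without number 2. The cause was not tested.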

Other observations

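The ratio of Foxo1 to Foxo3 normalized counts, chosen after the values were seen, was higher with FcCD70 in each same-numbered pair. It was 5.33, 5.19 and 3.91 in the FcCD70 libraries numbered 1 to 3, against 4.46, 4.30, 3.74 and 3.79 in the untreated libraries numbered 1 to 4. The rebuilt FcCD70 library numbered 4 had 3.92. The ratio was also higher in every library numbered 1 or 2 than in every library numbered 3 or 4, and the groups overlapped. No test was made of it.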
